A study of Brassica napus with 33 samples.

Results

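Clusters on unplaced scaffolds are small RNA (sRNA) clusters whose position lies on a sequence of the Express617 assembly that is none of the 19 chromosomes (A01 to A10, C01 to C09). They were selected by the name of the sequence alone. Of 91060 clusters with a position, 7413 (8.14%) were unplaced, on 437 scaffolds, and 83647 were placed on the chromosomes. The unplaced clusters covered 6.52 Mb, which was 7.39% of the length of all clusters.

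An unplaced scaffold is a stretch of assembled sequence that could not be anchored to a chromosome, often because it is rich in repeats. Most sRNA clusters of plants produce small interfering RNAs (siRNAs) of 24 nucleotides, which guide DNA methylation to transposons and other repeats. In ovules and young seeds of *Brassica rapa*, a few loci are known to yield a large part of such siRNAs. The clusters of these data carry neither gene names nor size classes, so miRNA and siRNA clusters were not separated, and the labelled tissues could not be checked against marker genes.

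Small RNA was sequenced in *Brassica napus* from the homozygous winter-type line Express617 (maternal), the homozygous semi-winter, semi-synthetic line G3D001 (paternal), and their hybrids. Leaves were taken at the stage of 6 unfolded leaves (BBCH16) from Express617, G3D001 and the F1 of Express617 and G3D001. Ovules were collected at OS15 and OS30, which stand for 15 and 30 days past pollination, from selfed Express617, selfed G3D001, the selfed F1, and Express617 plants pollinated with G3D001 (F0). All plants grew in the field, each replicate pooled material of several plants, and the 11 combinations of stage and genotype had 3 replicates each (33 libraries). An ovule holds maternal seed coat as well as embryo and endosperm, which could not be told apart in these libraries, nor could fewer cells of a type be told from less RNA per cell.

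Reads on clusters with a position numbered 12635700 to 27070031 per library, with a median of 17543495. Levels are given as CPM, the counts of a cluster scaled to these reads. An unplaced cluster had a median of 6 to 11 reads in a leaf library and 6 to 8 in an OS15 library. At OS30 it had 42 to 58 reads in Express617, F0 and F1 and 14 to 23 in G3D001, so single clusters were measured less precisely in leaves and at OS15.

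In total, 6 of the libraries stood apart in a set of unplaced clusters. Cluster_90566 (scaffold R21714, 386524 to 386828, 305 bp) had 1612 CPM in leaf replicate 1 of Express617 but 5.36 and 6.86 CPM in the other replicates. It had 675 CPM in leaf replicate 1 of G3D001, 629 CPM in replicate 3 of F0 at OS15, and 186, 597 and 2009 CPM in replicate 1 of Express617, F1 and G3D001 at OS30. In the other 27 libraries it stayed between 3.63 and 11.5 CPM. Its high values thus fell in single replicates of 6 groups and in no group as a whole.

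Across the libraries 85 clusters, Cluster_90566 included, had a correlation over 0.9 with it. Of these, 72 (84.7%) were unplaced, on 45 scaffolds that all lack a chromosome tag in their names, and 13 were placed on 8 chromosomes. Their median length was 200 bp. Together they held 1215 to 9718 CPM in the 6 libraries and 88.8 to 229 CPM in the other 27. Several results that rest on these libraries are given with and without them, or with single libraries left out, and the source of these reads was not tested. Leaving them out also removes a replicate from each affected group. Fewer calls without them therefore cannot be told apart from the loss of replicates.

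**Figure D1:**
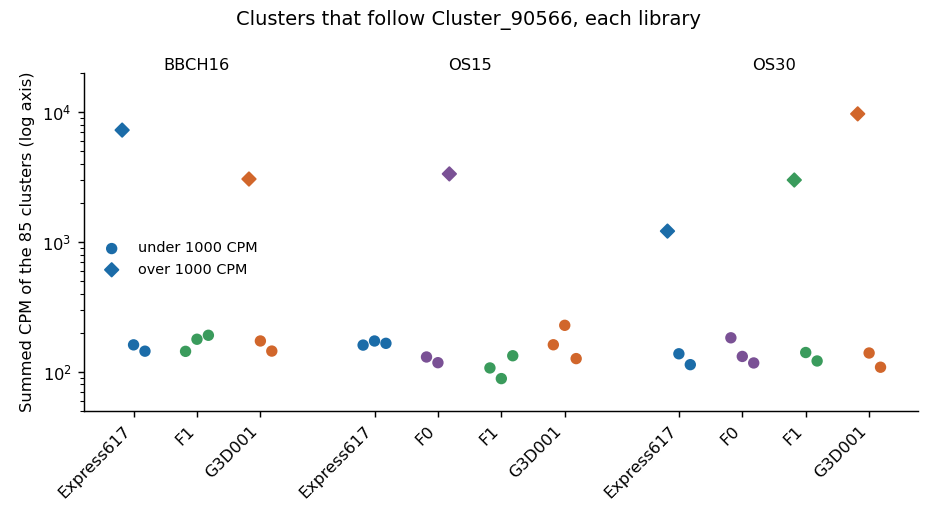
Summed CPM (log axis) of the 85 clusters that follow Cluster_90566, 1 point per library, ordered by stage and genotype. Diamonds mark the 6 libraries over 1000 CPM, which lie between 1215 and 9718 CPM, and circles the other 27, between 88.8 and 229 CPM.

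Unplaced clusters were shorter than placed clusters. Their median length was 586 bp (quartiles 267 and 1126 bp), against 698 bp (377 and 1220 bp) for placed clusters. They ranged from 24 to 9601 bp and placed clusters from 19 to 14210 bp. The difference lay at the short end. Clusters of up to 100 bp made up 6.02% of the unplaced (446) and 1.82% of the placed clusters, and clusters over 100 and up to 300 bp made up 22.6% (1679) and 15.7%. Clusters over 3000 bp were about as frequent in both, with 3.91% (290) and 4.004%.

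Scaffold size was uneven. A scaffold held a median of 3 clusters, 146 scaffolds held 1 cluster, and the 10 scaffolds with the most clusters held 2727 (36.8%) of the unplaced clusters. Some scaffolds carry a chromosome or subgenome tag in their names. Without a tag were 3985 clusters (53.8%) on 395 scaffolds, and their median length was 393 bp. A C tag was carried by 2019 clusters, an AC tag by 1120 and an A tag by 289, each on 14 scaffolds, with median lengths of 803, 790 and 822 bp. The short clusters were therefore mostly on scaffolds without a tag.

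The share of all located reads that fell on unplaced clusters was lowest in leaves and highest at OS30. It was 3.01% ± 0.158 (SD, n = 9) in leaves, 3.97% ± 0.286 (n = 12) at OS15 and 4.81% ± 0.308 (n = 12) at OS30. The ranges were 2.80% to 3.25%, 3.64% to 4.47% and 4.11% to 5.15%, so leaf and ovule libraries did not overlap while OS15 and OS30 did. In every library the share was below the 7.39% of cluster length that is unplaced. The order of the stages and this relation to length depended on a few clusters with many reads. Without the 10 located clusters with the most reads the means were 7.64% in leaves, 4.42% at OS15 and 5.41% at OS30, so leaves were then highest, and leaf libraries lay between 7.33% and 7.91%, around the share of length. Per kb of cluster, unplaced clusters had 4.61 ± 0.242 CPM in leaves, 6.08 ± 0.438 at OS15 and 7.37 ± 0.472 at OS30, against 11.9, 11.8 and 11.7 CPM per kb for placed clusters.

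Mean shares of the genotypes of a stage lay close together, though some groups did not overlap. In leaves, Express617 had 3.08% ± 0.161 (n = 3), F1 3.09% ± 0.129 and G3D001 2.86% ± 0.077. At OS15, Express617 had 3.98% ± 0.157, F0 4.03% ± 0.216, F1 3.70% ± 0.090 and G3D001 4.16% ± 0.447. At OS30, Express617 had 4.95% ± 0.147, F0 4.90% ± 0.217, F1 4.83% ± 0.172 and G3D001 4.56% ± 0.535. The libraries of Express617 and G3D001 overlapped at OS15, where G3D001 ranged from 3.65% to 4.47%, and at OS30, where it ranged from 4.11% to 5.15%. The highest G3D001 value at OS30 was that of replicate 1, and without the 85 clusters G3D001 had 4.32% ± 0.197 at this stage. Its libraries then ranged from 4.10% to 4.47%, below every OS30 library of Express617, F0 and F1 (4.65% or more). Without these clusters the stage means were 2.92%, 3.94% and 4.72%.

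**Figure D2:**
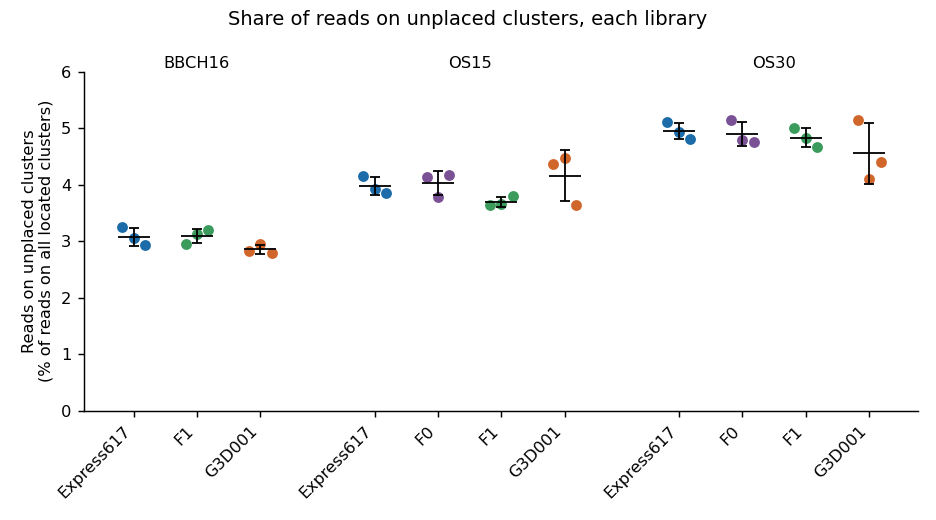
Percent of the reads on all located clusters that fell on unplaced clusters, 1 point per library, with the mean and SD of each group of 3 in black. Leaf libraries (BBCH16) lie between 2.80% and 3.25%, below all OS15 (3.64% to 4.47%) and OS30 libraries (4.11% to 5.15%).

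A few clusters held much of the unplaced reads. The 10 unplaced clusters with the most reads of a library took 47.8% to 57.6% of its unplaced reads in leaves and 40.9% to 50.1% at OS15. At OS30 they took 20.3% to 24.3% in Express617, F0 and F1 but 38.6% to 47.5% in G3D001. The own top 10 of the placed clusters took 68.8% to 74.9% of the placed reads in leaves, 8.98% to 19.2% at OS15 and 10.04% to 15.3% at OS30. These shares are not like for like, since 10 clusters are a smaller part of the 83647 placed than of the 7413 unplaced clusters.

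The leading clusters of leaves and of ovules differed. In leaves they were Cluster_90661 (R21755, 124612 to 124784, 173 bp), Cluster_85958 (R203_chrA02, 1585174 to 1585578) and Cluster_90662 (R21755, 125912 to 126073), with means of 0.705%, 0.517% and 0.0524% of the reads on located clusters. Cluster_90661 had 7132, 8239 and 7989 CPM in the leaf libraries of Express617, 6999, 6400 and 6651 CPM in F1, and 6250, 7040 and 6725 CPM in G3D001. In the ovule libraries it ranged from 277 to 668 CPM, below every leaf library. In Express617 its log2 fold change from leaf to OS15 was −4.36 ± 0.22 (SE; edgeR quasi-likelihood test, adjusted p = 1.1e-18), and that of Cluster_85958 was −4.01 ± 0.21.

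In ovules the leading clusters were Cluster_89986 (R21314_chrA01, 59896 to 61140), Cluster_84356 (R45525921_chrA05, 77178 to 78165) and Cluster_89791 (R21168_chrA01, 56094 to 57031). They held 0.347%, 0.305% and 0.231% of the reads at OS15 and 0.257%, 0.211% and 0.161% at OS30. Cluster_89986 had 29 reads in the 9 leaf libraries together. At OS15 it had 3466, 3382 and 3139 CPM in Express617, 3786, 3710 and 3673 in F0, 3564, 3276 and 3376 in F1, and 3706, 3294 and 3212 in G3D001, with overlap between both parents. At OS30 it had 2111, 2147 and 1960 CPM in Express617 and 4091, 3230 and 4229 CPM in G3D001, which did not overlap. Cluster_84356 rose from 0.524 to 0.630 CPM in leaves of Express617 to 2835 to 3131 CPM at OS15, a log2 fold change of 12.34 ± 0.31 (adjusted p = 3.9e-27, edgeR quasi-likelihood test).

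Levels of single clusters were compared as medians of log2(CPM + 1), where the pseudocount of 1 shrinks differences of low clusters. Unplaced minus placed, the medians differed by 0.15 ± 0.026 (n = 9) in leaves and by 0.10 ± 0.035 (n = 12) at OS15, with positive values in all 21 libraries. At OS30 they differed by −0.19 ± 0.054 in Express617, −0.15 ± 0.041 in F0 and −0.13 ± 0.041 in F1, but by 0.16 ± 0.009 in G3D001 (n = 3 each). Per kb of cluster the OS30 differences were 0.00 ± 0.064 in Express617, 0.04 ± 0.071 in F0, 0.06 ± 0.039 in F1 and 0.38 ± 0.012 in G3D001, so the lower level of the unplaced cluster in Express617, F0 and F1 was not seen per kb. In leaves 73 unplaced clusters (0.985%) and 1114 placed clusters (1.33%) had no read in any library, at OS15 4 and at OS30 1 unplaced cluster had none.

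The scaffolds fell into 2 kinds by the length of their clusters. Of 166 scaffolds with at least 5 clusters, 71 (1401 clusters, median length 179 bp) had a median cluster length of up to 300 bp and are called short-cluster scaffolds here, and 95 (5522 clusters, median length 783 bp) had longer clusters. Of the 71 short-cluster scaffolds 70 had no chromosome tag, against 57 of the 95 others. The remaining 271 scaffolds held 490 clusters and were left out of this comparison. The boundary of 300 bp was chosen after the levels were seen, so the comparison of both kinds is a description.

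Short-cluster scaffolds kept about the same level in all stages and genotypes. Their median log2(CPM + 1) was 1.33 ± 0.107 (n = 9) in leaves, 1.20 ± 0.161 (n = 12) at OS15 and 1.24 ± 0.117 (n = 12) at OS30, with 1.19 ± 0.075 (n = 3) in G3D001 at OS30. The longer-cluster scaffolds were lower in leaves (0.44 ± 0.103) and at OS15 (0.37 ± 0.052). At OS30 they reached 1.92 ± 0.035 in Express617, 1.89 ± 0.027 in F0 and 1.83 ± 0.074 in F1, but 0.87 ± 0.025 in G3D001. Placed clusters had 1.97 ± 0.044 in Express617 and 0.77 ± 0.026 in G3D001 at OS30. Placed clusters of up to 300 bp likewise had higher medians at OS30 than at OS15 in every genotype.

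**Figure D3:**
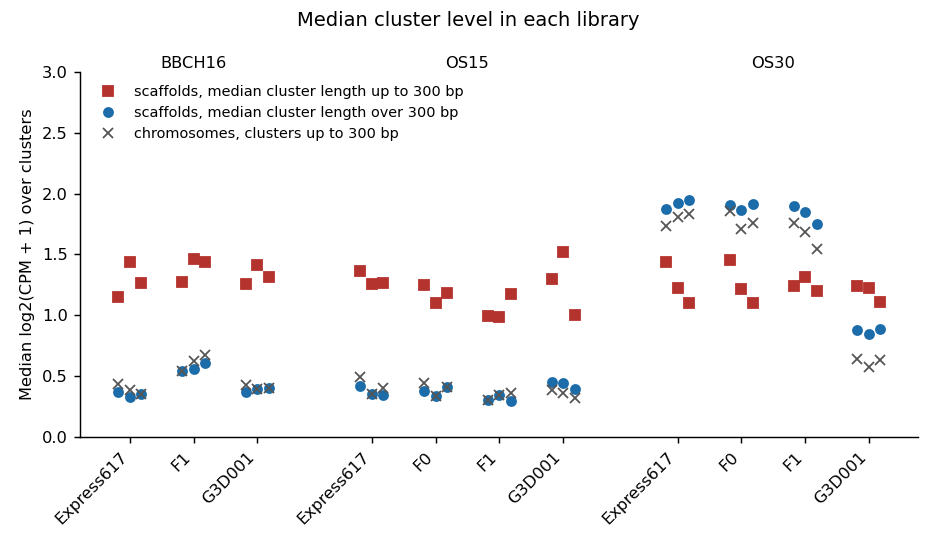
Median log2(CPM + 1) over clusters in each library, for scaffolds with a median cluster length of up to 300 bp (squares), scaffolds with longer clusters (circles) and chromosome clusters of up to 300 bp (crosses). Squares stay between 0.98 and 1.52 in all stages, while circles and crosses are higher at OS30, less so in G3D001.

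The same was seen scaffold by scaffold. For each scaffold the median over its clusters of the change in log2(CPM + 1) from OS15 to OS30 in Express617 was taken. This median change ran from −0.31 to 1.56 over the 71 short-cluster scaffolds, with a median of −0.04. It was within 0.5 of 0 in 69 of them. The exceptions were R21851 (1.56) and R46 (1.19). Over the 95 scaffolds with longer clusters it ran from −0.20 to 2.50, with a median of 1.28, and was within 0.5 in 23.

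**Figure D4:**
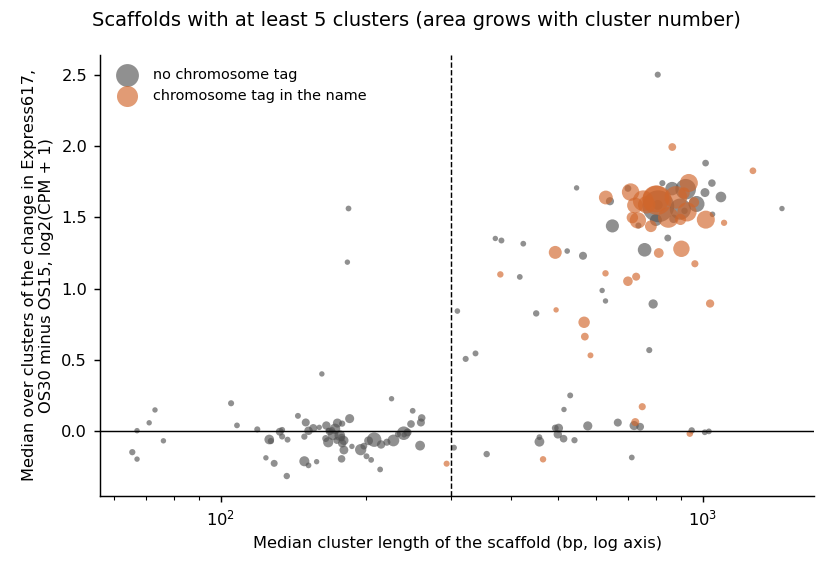
Change in Express617 from OS15 to OS30 (median over the clusters of a scaffold of the difference in log2(CPM + 1)) against the median cluster length of the scaffold (log axis), for the 166 scaffolds with at least 5 clusters, colored by whether the name carries a chromosome tag. Left of the dashed line at 300 bp, 69 of 71 scaffolds lie within 0.5 of 0, and right of it 23 of 95 do.

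In shares of reads, short-cluster scaffolds were highest in leaves. They held 1.43% ± 0.138 of the reads in leaves, 0.495% ± 0.095 at OS15 and 0.632% ± 0.197 at OS30, and in leaves Cluster_90661, which lies on one of them, alone held 0.705%. Longer-cluster scaffolds held 1.43% ± 0.107, 3.19% ± 0.174 and 3.95% ± 0.271. Clusters over 100 and up to 300 bp held 40.6% ± 2.37 of the unplaced reads in leaves, where Cluster_90661 lies in this class, and 10.6% ± 0.933 and 12.3% ± 1.37 at OS15 and OS30. The same class held 5.64%, 8.07% and 10.1% of the placed reads.

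Stages were compared within each parent with the quasi-likelihood test of edgeR on counts scaled by TMM factors, and a cluster was called at an adjusted p under 0.05. TMM assumes that most clusters do not change. From OS15 to OS30 in Express617 this scaling put the log2 fold change of the median cluster at 0.33, whereas it was 3.20 when libraries were scaled by their total counts. Fold changes across these stages therefore state a change relative to other clusters, and the calls under both scalings are given. The shares over all clusters or all sequences, here and below, are with TMM factors. Numbers of calls with total counts have no such share beside them. They show how calls depend on the scaling and not a trait of unplaced clusters.

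From leaf to OS15, 743 of 7401 unplaced clusters tested were higher and 782 lower in Express617, while 23.5% of all clusters were called (14.3% higher, 9.21% lower). In G3D001 755 of 7407 were higher and 560 lower, and 22.1% of all clusters were called (14.0% higher, 8.09% lower). From OS15 to OS30 in Express617, 1848 were higher and 2832 lower, while 53.2% of all clusters were called (28.3% higher, 24.9% lower). With total counts 5094 were higher and 316 lower. The median over unplaced clusters was −0.12 with TMM factors and 2.75 with total counts, below that of all clusters under both. In G3D001 1066 were higher and 945 lower from OS15 to OS30 (19.5% of all clusters, 11.0% higher and 8.51% lower), and with total counts 2398 were higher and 247 lower. Without the 6 libraries that stood apart, 1241 unplaced clusters were called in this comparison in place of 2011.

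The clusters of short-cluster scaffolds made up much of the lower calls. From OS15 to OS30 in Express617, 7 of 1399 were higher and 1318 lower (median −2.93), while 1796 clusters of longer-cluster scaffolds were higher and 1240 lower (median 0.52). With total counts the short-cluster scaffolds had 148 higher and 138 lower clusters (median −0.05) and the longer-cluster scaffolds 4700 and 151 (median 3.38). Without the 6 libraries the short-cluster scaffolds had 7 higher and 1348 lower clusters with TMM factors. Their level in CPM was thus flat while most clusters of longer-cluster scaffolds rose.

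Single clusters changed by more than this shift of scale. Cluster_90048 (R2135_chrA05, 132857 to 133905) had 33.6, 59.7 and 64.9 CPM in leaves of Express617 and at most 0.321 CPM in any ovule library. Its log2 fold change from leaf to OS15 was −8.93 ± 0.43 (adjusted p = 2.4e-19, edgeR quasi-likelihood test). Cluster_88928 (R211130_chrAC01, 57336 to 58360) had no read in any leaf library and 3 reads in the 3 OS15 libraries of Express617, and 534, 422 and 293 CPM at OS30. In pooled CPM it was 6621-fold higher at OS30 than at OS15 in Express617 (95% exact binomial interval of 2265 to 32111 for counting error only). This fold depends on the scaling. With TMM factors its log2 fold change was 9.47 to 9.96 with single libraries left out. In G3D001 it had 2.81, 4.02 and 2.39 CPM at OS30, far below F0 (832, 346 and 321 CPM) and F1 (444, 585 and 338 CPM).

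Cluster_91030 (R21953, 15001 to 15505) had 1223, 1126 and 1054 CPM at OS15 and 218, 218 and 198 CPM at OS30 in Express617, a log2 fold change of −5.32 ± 0.24 with TMM factors (adjusted p = 2.7e-19, edgeR quasi-likelihood test). In G3D001 it had 2725, 2345 and 2540 CPM at OS15 and 1299, 1241 and 1284 CPM at OS30, above every Express617 library of the same stage. The longest unplaced cluster, Cluster_87079 (R3_chrC09, 887958 to 897558, 9601 bp), had at most 0.923 CPM in leaves and at OS15. At OS30 it had 17.1, 17.6 and 18.6 CPM in Express617 and 3.45, 2.93 and 4.09 CPM in G3D001, and the hybrids (17.4 to 22.7 CPM) were close to Express617.

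The comparison of the parents asked which clusters differ between Express617 and G3D001 within a stage. In leaves 577 of 7340 unplaced clusters were higher in Express617 and 405 higher in G3D001, while 16.5% of all clusters were called (10.5% and 6.02%). At OS15 443 of 7401 were higher in Express617 and 534 in G3D001, while 17.9% of all were called (9.75% and 8.15%). With total counts the leaf split turned to 404 higher in Express617 and 569 in G3D001.

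At OS30 1287 of 7411 unplaced clusters were higher in Express617 and 3548 higher in G3D001. Of all clusters 59.7% were called, 28.8% higher in Express617 and 30.9% higher in G3D001, so the excess of calls toward G3D001 was seen in unplaced but hardly in all clusters. The median log2 fold change was −0.66 over unplaced and 0.01 over all clusters. With total counts the medians were 1.36 and 2.02, and 4651 unplaced clusters were higher in Express617 and 522 in G3D001, so the direction of most calls depended on the scaling while the unplaced clusters lay below all clusters under both. Without the 6 libraries 3991 unplaced clusters were called in place of 4835. Log2 fold changes of named clusters and scaffolds at OS30 are with TMM factors unless stated otherwise. Those against G3D001 therefore differ in size from the ratios of the CPM beside them.

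With TMM factors, the median on short-cluster scaffolds lay furthest toward G3D001. At OS30 15 of their 1401 clusters were higher in Express617 and 1254 in G3D001, with a median of −1.96, and without the 6 libraries 10 and 1169. With total counts 227 were higher in Express617 and 155 in G3D001, with a median of 0.05. Longer-cluster scaffolds had 1244 and 1905 of 5520 (median −0.18), and with total counts 4283 and 287 (median 1.83), which was further from 0 than on short-cluster scaffolds. Placed clusters had 24978 and 24580 of 83642 (median 0.06). Placed clusters of up to 300 bp had 4792 higher in Express617 and 4046 in G3D001 (median 0.20), unlike unplaced clusters of the same length.

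The clusters with the smallest adjusted p in each direction were near silent in one parent. Cluster_89062 (R211164, 14500 to 15871) had 0.116, 0.361 and 0.350 CPM in leaves of Express617, 215, 205 and 221 CPM in G3D001, and 246, 279 and 267 CPM in F1. At OS15 it had 0.409, 0.415 and 0.592 CPM in Express617, 59.1, 44.8 and 34.5 CPM in G3D001, and 91.5, 154 and 82.3 CPM in F1. The F1 thus resembled G3D001 in leaves, while F0 at OS15, with 0.720, 0.522 and 0.770 CPM, stayed near Express617.

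At OS30 Cluster_89062 had 3.86, 3.61 and 3.71 CPM in Express617, 29.6, 33.1 and 33.4 CPM in F0, 136, 174 and 169 CPM in F1, and 452, 380 and 459 CPM in G3D001, with no overlap between the 4 groups. The log2 fold change of Express617 against G3D001 was −9.33 ± 0.33 in leaves, −6.49 ± 0.34 at OS15 and −8.87 ± 0.27 at OS30 (adjusted p = 6.0e-32, 1.7e-17 and 9.6e-12, edgeR quasi-likelihood test). F0 was higher than Express617 by 3.14 ± 0.18 at OS30 (adjusted p = 6.5e-07).

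Cluster_84610 (R121_chrC07, 257904 to 258469) was an ovule cluster of G3D001. It had at most 0.210 CPM in any leaf library. At OS15 it had 0.136, 0.208 and 0 CPM in Express617, 0.060, 0.104 and 0.385 CPM in F0, 333, 249 and 317 CPM in F1, and 734, 592 and 544 CPM in G3D001. At OS30 it had 1.53, 2.50 and 1.71 CPM in Express617 and 1080, 995 and 1250 CPM in G3D001, with F1 at 200, 190 and 193 CPM. With TMM factors the log2 fold change of Express617 against G3D001 was −12.34 ± 0.41 at OS15 and −11.20 ± 0.29 at OS30 (adjusted p = 3.0e-23 and 4.6e-12, edgeR quasi-likelihood test). At OS30 the log2 ratio of the mean CPM of Cluster_84610 was −9.18. Unlike Cluster_89062, it gave no call between F0 (2.02, 1.60 and 1.48 CPM) and Express617 at OS30, with a difference of −0.13 ± 0.21 (adjusted p = 0.84).

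In the other direction, Cluster_85201 (R16_chrAC05, 1130056 to 1131062) had 56.5, 60.7 and 75.1 CPM in leaves of Express617 and 98.6, 80.9 and 74.6 CPM in F1, but 0.115, 0.158 and 0.129 CPM in G3D001 (log2 fold change 9.08 ± 0.38, adjusted p = 8.9e-29, edgeR quasi-likelihood test). At OS15 it was low in all groups, at most 4.07 CPM. At OS30 it had 136, 126 and 123 CPM in Express617, 60.9, 53.7 and 51.3 CPM in F0, 59.1, 59.6 and 53.0 CPM in F1, and at most 0.976 CPM in G3D001, so that F0 and F1 overlapped below Express617.

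Cluster_88234 (R94, 15553 to 15917) was found in ovules, with 2 reads in all leaf libraries together. At OS15 it had 251, 241 and 231 CPM in Express617, 264, 225 and 245 CPM in F0, 122, 89.5 and 109 CPM in F1, and 0.366, 1.15 and 0.687 CPM in G3D001 (log2 fold change 8.42 ± 0.34, adjusted p = 8.1e-21, edgeR quasi-likelihood test). Cluster_84520 (R106, 3022556 to 3023065) had 107 ± 16.2 CPM (n = 3) in Express617 at OS30, 110, 119 and 108 CPM in F0, 40.7, 37.9 and 37.8 CPM in F1, and 0.401, 0.366 and 0.469 CPM in G3D001 (5.99 ± 0.27, adjusted p = 1.1e-10). In both clusters F0 overlapped Express617 and F1 lay between the parents.

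**Figure D5:**
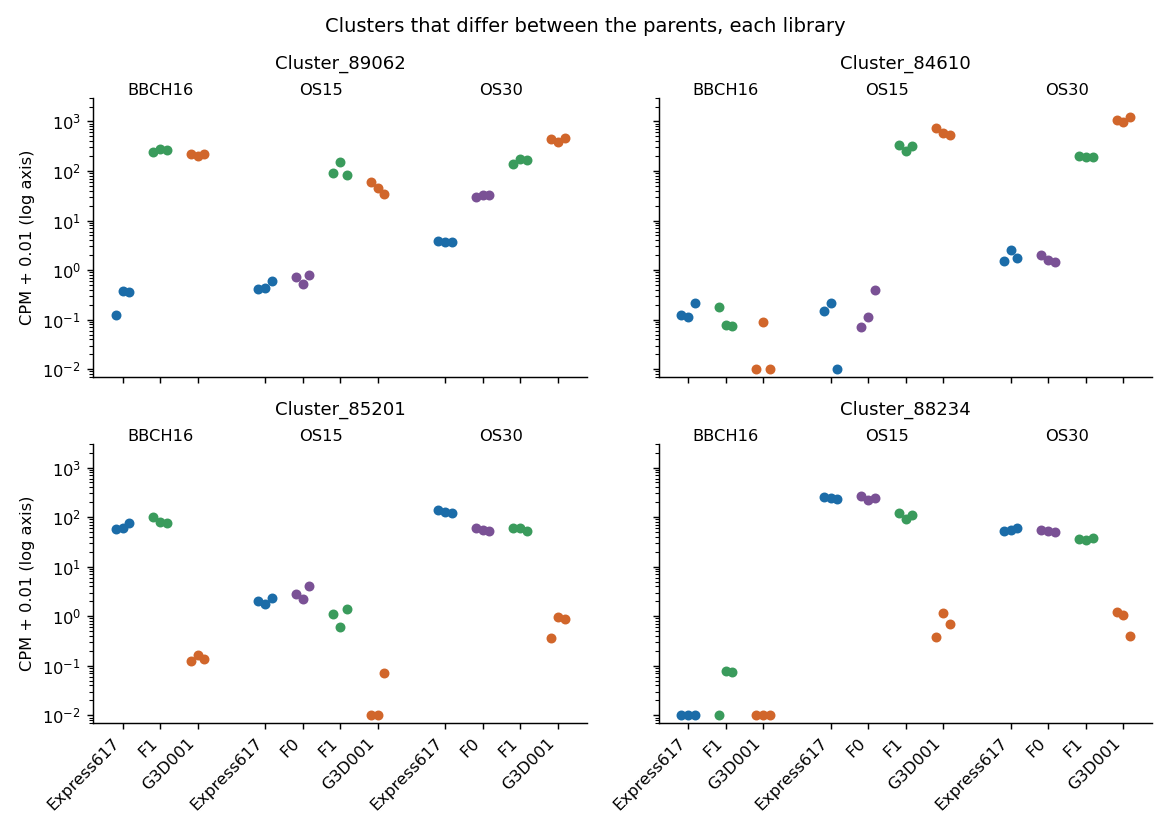
CPM plus 0.01 (log axis) of 4 unplaced clusters in each library, colored by genotype. The upper panels show Cluster_89062 and Cluster_84610, high in G3D001 and F1, and the lower panels Cluster_85201 and Cluster_88234, which are near 0 in G3D001.

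The hybrids were compared with each parent in trios of 9 libraries, and the F0 and F1 trios at a stage use the same parental libraries. In leaves F1 was higher than Express617 in 159 and lower in 279 unplaced clusters (4.37% of all clusters called, 2.32% higher and 2.05% lower), and higher than G3D001 in 231 and lower in 161 (6.51%, 5.31% and 1.2%). With total counts the splits were 747 and 148 against Express617 and 451 and 91 against G3D001. At OS15 F1 was higher than Express617 in 256 and lower in 99 (6.25%, 4.55% and 1.7%), and higher than G3D001 in 268 and lower in 142 (6.99%, 5.22% and 1.78%). With total counts these were 180 and 229, and 149 and 383. Most of these directions thus depended on the scaling.

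At OS15 F0 differed from Express617 in 3 unplaced clusters, 2 higher and 1 lower (0.0132% of all clusters called, 0.0077% higher and 0.0055% lower). An unadjusted p under 0.05 was found in 398 of 7403 unplaced clusters and in 3674 of 90944 of all clusters. The higher clusters include Cluster_90566, which was high only in replicate 3 of F0. Without that library none was called, and DESeq2 called 1. Against G3D001, F0 was higher in 586 and lower in 538 (18.5%, 10.7% and 7.79%), and with total counts in 450 and 661.

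At OS30 F0 was higher than Express617 in 178 and lower in 91 unplaced clusters (4.58% of all clusters, 2.76% and 1.82%), and F1 in 658 and 458 (19.0%, 9.97% and 9.07%), and with total counts F1 in 471 and 634. Both counts fell when the 6 libraries were left out, to 86 for F0 and 344 for F1. With only 1 library left out they fell as low as 105 and 693, so part of the fall may come from fewer replicates. Against G3D001, F0 was higher in 1011 and lower in 3190 (50.1%, 24.5% and 25.7%) and F1 in 1097 and 3273 (52.7%, 26.0% and 26.7%). With total counts these splits were 4826 and 411 for F0, and 4745 and 402 for F1. Whether F0 and F1 differ in the number of clusters called against Express617 was not tested.

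By the signs of the 3 comparisons of a trio, clusters were classed as additive (hybrid between the parents), maternal dominant (like Express617), paternal dominant (like G3D001) or transgressive (outside both). The classes are with TMM factors. Since most directions against G3D001 at OS30 depended on the scaling, the OS30 classes hold for these factors only. A cluster classed as transgressive at OS30 can lie between the parents in CPM, as Cluster_89405 does in F0. Each percentage in brackets, here and for the transgressive clusters below, is the share of all clusters tested that fell in the class. It is not the share of the unplaced clusters. In leaves 229 unplaced clusters were maternal dominant (4.88% of all clusters), 223 paternal dominant (2.68%) and 46 additive (0.802%). In F1 at OS15 these were 214 (4.02%), 202 (3.58%) and 55 (1.11%). F0 at OS15 had 770 maternal dominant clusters (14.6%) and no paternal dominant or additive cluster. At OS30 F1 had 3427 maternal dominant (36.8%), 385 paternal dominant (6.12%) and 459 additive clusters (8.04%), and F0 had 3793 (43.0%), 121 (1.81%) and 112 (2.06%). Without the 6 libraries the additive clusters at OS30 numbered 139 in F1 and 30 in F0. With single libraries left out, the additive clusters ranged from 255 to 635 in F1 at OS30, with 281, 298 and 255 without replicate 2 of Express617 and replicates 2 and 3 of F1. They ranged from 40 to 162 in F0 at OS30, with 40 to 52 without any 1 library of Express617 or replicate 2 or 3 of F0, and from 36 (without replicate 1 of F1) to 100 (without replicate 2 of G3D001) in F1 at OS15. The paternal dominant clusters of F0 at OS30 ranged from 49 to 195, with 49 to 64 without the same libraries and 195 without replicate 1 of F0.

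Few unplaced clusters were transgressive with TMM factors. In leaves 65 were lower (0.164% of all clusters) and 10 higher (0.0389%) in F1 than in both parents. The 65 were 44.2% of the 147 clusters of this class, had a median length of 188 bp and lay on 44 scaffolds, 50 of them on short-cluster scaffolds. Of the 65, 51 belonged to the 85 clusters that follow Cluster_90566, which were high in a replicate of each parent and in no leaf library of F1. Without these leaf libraries 26 were called, and with DESeq2 10. At OS15 F1 had 14 lower (0.0627%) and 52 higher (0.97%) clusters, at OS30 F1 had 78 (1.05%) and 95 (2.09%) and F0 8 (0.123%) and 16 (0.346%). Without the 6 libraries the OS30 numbers were 12 and 16 in F1, and 1 and 3 in F0. With single libraries left out, the lower clusters in leaves ranged from 9 (without replicate 1 of G3D001) to 85, with 22 without replicate 1 of Express617 and 40 without replicate 2 of F1, and the higher ones from 5 (without replicate 3 of F1) to 13. At OS30 they ranged from 34 to 107 lower and 44 to 126 higher in F1, both fewest without replicate 1 of F1 and low without replicate 2 of F1 or replicate 1 or 2 of Express617, and from 1 to 32 lower and 5 to 57 higher in F0, where both were highest without replicate 1 of F0 and at most 4 and 8 without any 1 library of Express617 or replicate 2 or 3 of F0.

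For each trio the transgressive unplaced cluster with the smallest p-value in each direction is given. Cluster_88746 (R9, 9975 to 10114) had 10.1, 8.10 and 7.70 CPM in leaves of Express617, 3.17, 3.88 and 4.08 CPM in G3D001, and 1.47, 0.874 and 1.19 CPM in F1. The log2 difference of F1 was −3.45 ± 0.31 from Express617 and −1.97 ± 0.31 from G3D001 (adjusted p = 5.7e-13 and 4.5e-06, edgeR quasi-likelihood test). Cluster_85273 (R16_chrAC05, 2132134 to 2132188) was called higher in F1 leaves but had 0.0566, 4.37 and 37.2 CPM there, against at most 0.158 CPM in the parents, so the call rested mainly on replicate 3.

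At OS15 Cluster_88930 (R211130_chrAC01, 71995 to 74487) had 10.7, 7.48 and 5.41 CPM in F1 and at most 0.692 CPM in Express617, F0 and G3D001, a log2 difference of 4.93 ± 0.44 from Express617 and 4.80 ± 0.43 from G3D001 (adjusted p = 6.5e-11 and 9.5e-11, edgeR quasi-likelihood test). At OS30 it had 41.2 to 107 CPM in all groups, and the groups overlapped. Cluster_86045 (R21, 42637 to 42956) was lower in F1 at OS15, with 0.872, 0.976 and 1.65 CPM against 2.59 to 6.23 CPM in both parents. It is one of the 85 clusters that follow Cluster_90566, though none of the 6 libraries is in this trio. In F0 at OS15, Cluster_88807 (R211028, 35944 to 36010) had 1.08, 0.835 and 0.660 CPM against 2.11 to 4.72 CPM in both parents.

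At OS30 Cluster_85022 (R158_chrAC04, 985391 to 990381) had 23.8, 20.9 and 21.0 CPM in F1, 7.96, 9.02 and 8.78 CPM in Express617 and 1.60, 1.65 and 2.73 CPM in G3D001. With TMM factors the log2 difference of F1 was 1.48 ± 0.19 from Express617 and 1.57 ± 0.21 from G3D001. Cluster_85585 (R187, 193695 to 194213) had 0.972, 0.463 and 0.332 CPM in F1, 2.90, 3.32 and 3.36 CPM in Express617, and 1.20, 1.59 and 0.640 CPM in G3D001, which overlapped F1 in CPM. The fit with TMM factors gave it log2 differences of −2.34 ± 0.36 and −2.85 ± 0.40 from Express617 and G3D001.

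Cluster_90820 (R21835_chrA05, 127171 to 127261) had 3.94, 3.48 and 3.38 CPM in F0 at OS30, at most 0.684 CPM in the parents and 1.99 to 3.79 CPM in F1, so it was high in both hybrids. F0 differed from Express617 by 3.25 ± 0.36 and from G3D001 by 2.40 ± 0.43 on the log2 scale. Cluster_89405 (R211357, 3264 to 3696) had 1.97, 1.37 and 2.05 CPM in F0 against 4.66 to 7.47 CPM in Express617, with a log2 difference of −1.73 ± 0.24. Its difference from G3D001 (1.08 to 1.22 CPM) was −1.34 ± 0.27 with TMM factors and 0.64 with total counts, so this direction depended on the scaling.

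Whole scaffolds were compared over libraries by summing the counts of their clusters. In leaves 43 of 435 scaffolds were higher in Express617 and 35 in G3D001, while 19.6% of all sequences were called (11.7% and 7.93%). At OS15 the numbers were 23 and 51 of 437 (16.9%, 5.26% and 11.6%). At OS30 28 were higher in Express617 and 358 in G3D001 (88.8%, 6.14% and 82.7%), and all 19 chromosomes were also higher in G3D001, with log2 fold changes of −3.00 to −1.47. With total counts 148 scaffolds were higher in Express617 and 57 in G3D001 at OS30, and 7 chromosomes were higher in each. In leaves total counts gave 20 and 51, and at OS15 14 and 54. The direction in leaves and at OS30 therefore depended on the scaling, and at OS15 more scaffolds were higher in G3D001 under both.

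The 3 scaffolds with the most clusters were R94 (509), R40268543_chrC03 (428) and R67_chrAC05 (359). R94 summed to 634 to 697 CPM in leaves of Express617 and 705 to 789 CPM in leaves of G3D001. At OS30 it summed to 2673 to 3000 CPM in Express617 and 1080 to 1284 CPM in G3D001. R40268543_chrC03 had 2089 to 2242 CPM in Express617 and 704 to 822 CPM in G3D001 at OS30, and R67_chrAC05 had 1638 to 1778 CPM and 435 to 517 CPM. At OS30 the libraries of both parents did not overlap in CPM in any of these scaffolds. With TMM factors the OS30 difference had the opposite direction, with log2 fold changes of Express617 against G3D001 of −0.76 ± 0.11 in R94, −0.52 ± 0.06 in R40268543_chrC03 and −0.18 ± 0.06 in R67_chrAC05 (adjusted p = 0.000141, 3.6e-05 and 0.0197, edgeR quasi-likelihood test), so it depended on the scaling.

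R211164, with 5 clusters, was higher in G3D001 in every stage, with log2 fold changes of Express617 against G3D001 of −9.46 ± 0.27 in leaves, −6.50 ± 0.34 at OS15 and −8.75 ± 0.19 at OS30. Cluster_89062 held 91.3% to 94.5% of its reads, and all 5 of its clusters were called higher in G3D001 in each stage. R21314_chrA01, which carries the leading ovule cluster, was higher in leaves of Express617 (15.5 to 16.2 CPM) than of G3D001 (2.8 to 5.0 CPM), by 2.22 ± 0.20 (adjusted p = 0.000159, edgeR quasi-likelihood test). R211171 was higher in Express617 at OS15 by 1.43 ± 0.20 and R211351 at OS30 by 0.77 ± 0.16.

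R203_chrA02, examined after its values were seen, carries 128 clusters with an A02 tag. Of these, 25, 29 and 76 were higher in G3D001 in leaves, at OS15 and at OS30, and 0, 3 and 9 were higher in Express617. The shares higher in G3D001 were 19.5%, 22.7% and 59.4%, against 18.1%, 17.4% and 44.4% of the clusters placed on A02 and 6.02%, 8.15% and 30.9% of all clusters. Their median log2 fold changes were −0.62, −0.93 and −0.94, and those of the clusters placed on A02 were −0.59, −0.50 and −0.55, below 0 in each stage as well. In CPM the sum of R203_chrA02 at OS30 was higher in Express617 (1172 to 1212 CPM) than in G3D001 (772 to 1047 CPM), so its direction at OS30 depended on the scaling. Cluster_85958 alone held 59.4% of the reads of this scaffold at OS30, so the sum mainly describes that cluster. By tag, scaffolds with a C tag held 1.35% of the reads in Express617 and 0.731% in G3D001 at OS30, and scaffolds with an A tag 0.821% and 1.43%. Much of the A-tag reads lay on Cluster_89986, Cluster_84356 and Cluster_89791. Their means at OS30 were 2073, 1693 and 1332 CPM in Express617 and 3850, 3396 and 2438 CPM in G3D001. The A-tag shares thus do not describe these scaffolds in general.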

How the data were processed

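Small RNA libraries (33) were analysed. The study's mRNA and bisulfite libraries were not analysed here. Per the study's methods, the authors removed short reads, mapped them to Express617 and used ShortStack to define sRNA clusters and count their reads. The deposited values are raw counts, and CPM (counts per 1e+06 located reads) was computed from them. The 10201 entries that carry a sequence in place of a position held 2.33% to 10.1% of the counts and entered neither library sizes nor tests. Every cluster had at least 347 counts over all libraries, so clusters that are low everywhere are not represented. Coordinates are those of the Express617 assembly as the deposited locus names give them. No sequence or annotation of that assembly was used here.

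Counts were tested with edgeR 4.0.16 (quasi-likelihood test, TMM factors) under R 4.3.3 on the 9 libraries of a trio (2 parents and 1 hybrid) or of the 3 stages of a parent. All located clusters with a count entered, p-values were adjusted by Benjamini-Hochberg over all of them, and the threshold was 0.05. Scaffold sums were tested with the same library sizes and factors. Shares and medians got no test, since clusters of a scaffold are neighbors and not replicates. Errors are SDs over libraries, or SEs of fitted log2 fold changes. Replicates are pools of different plants per the study's methods, and p-values measure only the spread between them. No 2 replicates agreed within sampling noise (chi-squared per degree of freedom of 2.72 to 43.6).

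Clusters and scaffolds named in the text were the 3 with the highest share of reads per stage, those with the smallest adjusted p per direction between parents (without overlap), for transgressive classes and for stage contrasts in Express617, the longest cluster, the 3 scaffolds with the most clusters, and the scaffold of at least 5 clusters with the smallest adjusted p per direction. R203_chrA02, R21851 and R46 were added after their values were seen. The members and lists were chosen with earlier results of these data known. Alternatives were DESeq2 1.42.0, RLE and total-count scaling, fitting all libraries of a stage together, a call that also needs a log2 fold change of 1 or more in size, a replicate block, clusters with 10 counts in 3 libraries only, scaffolds with at least 5 clusters, other totals, CPM per kb, a pseudocount of 0.1, and omission of single libraries. Leaving out the 6 libraries that stood apart, or the 85 clusters, was chosen after seeing the data. Figures were drawn with matplotlib 3.10.9. Only the edgeR comparison of the parents was tested on simulated data, with the means and library sizes of the leaf trio. That simulation held no shift of most clusters as seen at OS30. Classes, scaffold sums and shares were not tested in this way.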

Additional observations from a re-analysis of the deposited data

Results flagged for a closer look

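For 2 clusters and 4 scaffolds given here the libraries of the parents stood in opposite order at 2 stages. The list is not complete. The order was also opposite at 2 stages in CPM for R40268543_chrC03, R203_chrA02, Cluster_85022, Cluster_89405 and Cluster_90820, for which no ratio is given. In leaves of Express617, Cluster_85022 and Cluster_89405 had 2 reads each. Values are log2 ratios of the mean CPM of Express617 to that of G3D001, and the difference between the stages was not tested. For Cluster_84610 the ratio was 2.44 in leaves, where it rests on 7 and 1 reads, against −12.41 at OS15 and −9.18 at OS30. For Cluster_87079 it was −4.80 in leaves, where Express617 had 1 read, and 2.35 at OS30. The scaffold R94 had −0.16 in leaves and 1.28 at OS30, and R67_chrAC05 had −0.20 and 1.85. With TMM factors these 2 scaffolds had the opposite signs, with 0.09 and −0.76 for R94 and 0.05 and −0.18 for R67_chrAC05, and the leaf differences were not called, so which parent was higher depended on the scaling. R21314_chrA01, which carries the leading ovule cluster, had 1.95 in leaves and −0.83 at OS30. R211351 had 0.49 in leaves, −1.34 at OS15 and 2.79 at OS30. With TMM factors it had 0.73, −1.28 and 0.77.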

How the results depend on the processing

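Most counts of called unplaced clusters stayed within 1.5 times of the value given. F1 against Express617 in leaves had 895 calls with total counts and 279 with DESeq2, in place of 438, and F1 against G3D001 had 224 with DESeq2 in place of 392. F0 against Express617 at OS15 (3 calls) had 1 with RLE factors, total counts or DESeq2, 0 with the minimum of 10 counts or without the 6 libraries, and 10 in one fit per stage. F0 against Express617 at OS30 (269 calls) had 419 in one fit per stage and 86 without the 6 libraries. F1 against Express617 at OS30 (1116 calls) had 664 where the size of the log2 fold change also had to reach 1 and 344 without the 6 libraries. OS30 against OS15 in G3D001 (2011 calls) had 1241 without them.

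Of the scaffolds with at least 5 clusters 27.1% were called between the parents in leaves, against 17.9% of all scaffolds, and with total counts 46.9% of all scaffolds were called at OS30. The share of unplaced reads without the 10 located clusters with the most reads was 7.64%, 4.42% and 5.41% in leaves, at OS15 and at OS30, and in leaves it was 2.32% without the top unplaced cluster. The median difference of unplaced and placed clusters was 0.27, 0.42 and 0.20 in leaves per kb, with a pseudocount of 0.1 and with the minimum of 10 counts, and 0.19, 0.29 and 0.14 at OS15. At OS30 it was −0.08 over all libraries and 0.12 per kb, so its sign depended on length. The OS30 difference of Cluster_89405 between F0 and G3D001 reversed to 0.64 with total counts. The causes were not tested.

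Leaving out 1 library at a time gave 0 to 74 calls for F0 against Express617 at OS15. There were 0 without replicate 2 or 3 of Express617 or replicate 3 of F0, 46 and 40 without replicate 1 or 2 of F0, and 20, 74 and 18 without replicate 1, 2 or 3 of G3D001. At OS30 F0 against Express617 gave 105 to 471 calls, with 117, 105 and 122 without replicate 1, 2 or 3 of Express617 and 471, 114 and 114 without replicate 1, 2 or 3 of F0. F1 against Express617 at OS30 gave 693 to 1505, with 693 without replicate 2 of Express617 and 721, 738 and 727 without replicate 1, 2 or 3 of F1. OS30 against OS15 in G3D001 gave 1248 to 2008, with 1248 without replicate 1 at OS30. Between the parents at OS15 11.2% to 23.1% of scaffolds were called, with 11.2% without replicate 1 of Express617.

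Codes in the labels are shared by same-numbered libraries of 1 line across stages, but not between lines, and what they mark is not given. Same-numbered libraries deviated with correlations of −0.20 to 0.48, over 0.1 in at most 5 of 9 pairs of a fit. In a fit 4 to 7 of 9 libraries correlated best with their own number. Whether the numbers mark shared material was not tested. The main fits did not take them as pairs, and a replicate block was an alternative. With the number as a replicate block, F0 against Express617 at OS15 had 27 calls and the transgressive clusters of that trio numbered 19 up and 3 down, and no other count, those between stages included, moved by over 1.5 times. Single libraries left out gave 0 to 61 transgressive clusters up and 0 to 10 down in that trio, and 5 to 18 down in F1 at OS15 (5 to 9 without replicate 2 or 3 of Express617 or replicate 1 or 2 of F1). Depth limited single clusters most in leaves and at OS15, where the typical cluster had 6 to 11 reads.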
